A study of Mus musculus with 12 samples.

Results

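Lipoprotein handling by the liver is described here through 8 genes, namely the lipases Lpl and Lipc, the lipase anchor Gpihbp1 and the lipoprotein receptors Vldlr, Lrp1, Scarb1, Apobr and Lsr. They were chosen by name as the rows of the count table that carry these symbols, and all 8 were found among 56748 genes. Their mRNA was measured by RNA-seq of whole livers from mice fasted for 24 h, with 4 livers in each of 3 genotypes. The controls, called WT, are labelled as CPT1A/1B/2 triple floxed controls, so they carry floxed alleles of Cpt1a, Cpt1b and Cpt2. SKO livers are labelled as a CPT2 liver-specific KO, and DKO livers as an ATF3;CPT2 liver-specific double KO. Cpt2 encodes carnitine palmitoyltransferase 2, which long-chain fatty acids need to be oxidized in mitochondria, and Atf3 encodes a transcription factor induced by stress. The KOs came from crosses of floxed lines to albumin-Cre mice. This driver is active in hepatocytes, and only cells of the liver in which it was never active keep these genes. The study describes C57BL6 lines and males for this experiment, and the labels give no age, litter or batch, so p-values here measure the spread between these livers only.

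Triglyceride-rich lipoproteins are emptied in capillaries by lipoprotein lipase, which Gpihbp1 carries across the endothelium and holds there, and the remnants are then cleared by the liver. Hepatic lipase, the product of Lipc, trims remnants and HDL, while Lrp1 and related receptors, heparan sulfate proteoglycans and Lsr take up particles that carry apolipoproteins B and E. Scarb1 encodes SR-BI, which takes cholesteryl ester from HDL without taking up the whole particle.

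Each library held 14710304 to 20030055 counts in all, and levels are given as CPM, counts scaled to a common library size with TMM factors over the 12 livers. The targeted Cpt2 transcript was at 234 ± 24.4 CPM in WT livers, 127 ± 22.7 in SKO livers and 117 ± 11.8 in DKO livers (SD, n = 4 each). Atf3 had 17 to 39 reads in WT and 259 to 1056 in SKO livers, and 164, 177, 265 and 5 reads in DKO livers 1 to 4. Every KO liver lay below every WT liver in Cpt2, but DKO 1 to 3 held more Atf3 reads than every WT liver. In CPM, Atf3 was at 14.5 or more in SKO livers and at 13.5 or less in DKO livers. Counts over whole genes do not show which exons were read, so the loss of Atf3 is taken here from the labels alone. Livers SKO 3 and DKO 4 had 18063 and 20855 reads of Xist, the RNA of the inactive X chromosome, and 2 and 0 reads of 4 Y-linked genes, whereas the other 10 livers had 1 to 19 reads of Xist and 2741 to 4294 Y-linked reads, which sets these livers apart from the stated sex. Whether the labels of SKO 3 and DKO 4 are right could not be settled from these data, and both are named below as labelled. DKO 4 also stood apart in several of the genes below, so many calls and fold changes of DKO livers, though not all, are also given without it. Hepatocyte markers summed to 90330 to 111295 CPM in WT livers, 51414 to 79921 in SKO livers and 49941 to 61561 in DKO livers 1 to 3, and to 109304 in DKO 4. Of 11 hepatocyte markers tested, 6 were lower in SKO and 1 was lower in DKO than in WT livers, or 7 in DKO without DKO 4, beside 15.4%, 4.39% and 17.5% of all genes tested. Alb, the marker with the highest level, was present in every liver at 22524 CPM or more and made up much of the sum, at 58977 ± 5929 CPM in WT livers (SD, n = 4). The 5 markers not called in SKO livers were Hnf4a (-0.069 ± 0.13), Cps1 (-0.026 ± 0.18), Asgr1 (-0.25 ± 0.13), Apoa1 (0.23 ± 0.20) and Tat (-1.0 ± 0.43), given as log2 fold changes against WT.

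The first question was which of these genes differed after loss of Cpt2, and whether livers labelled as lacking Atf3 too differed from these. In SKO livers, Vldlr and Apobr were higher than in WT and Lipc, Lrp1 and Scarb1 were lower, by 2.16-fold to 3.74-fold, while Lpl, Gpihbp1 and Lsr did not pass the test. These are 5 of 8 genes at an adjusted p under 0.05, with 2 higher and 3 lower, beside 32.1% of 14261 genes tested that passed, 16.7% higher and 15.4% lower. In DKO livers, Vldlr was higher than in WT and Lrp1 and Scarb1 were lower, which makes 3 of 8 genes, 1 higher and 2 lower, beside 10.5% of 14448 genes, 6.06% higher and 4.39% lower. None of the 8 passed between DKO and SKO livers with edgeR, beside 0.0209% of 14363 genes, 0.00696% higher and 0.0139% lower in DKO. In that comparison 2 of the 8, Apobr and Gpihbp1, had an unadjusted p under 0.05, and DESeq2 called 1 of them, Apobr.

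Leaving out the livers with Xist counts did not alter the counts in SKO against WT, with 2 genes higher and 3 lower, where 32.5% of all genes passed, 17.3% higher and 15.2% lower. For DKO against WT livers the count rose to 5 of 8 without DKO 4, with 1 gene higher and 4 lower, where 35.9% of all genes passed, 18.4% higher and 17.5% lower. All 8 genes passed the filter on low counts in every comparison. Both comparisons against WT use the same 4 WT livers. When libraries were scaled by their size alone, the median log2 fold change over all genes moved to 0.20 in both comparisons against WT, and 3759 genes were higher and 1562 lower in SKO livers, instead of 2378 and 2198 with TMM. In DKO livers 1788 were then higher and 469 lower, instead of 876 and 634.

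**Figure D1:**
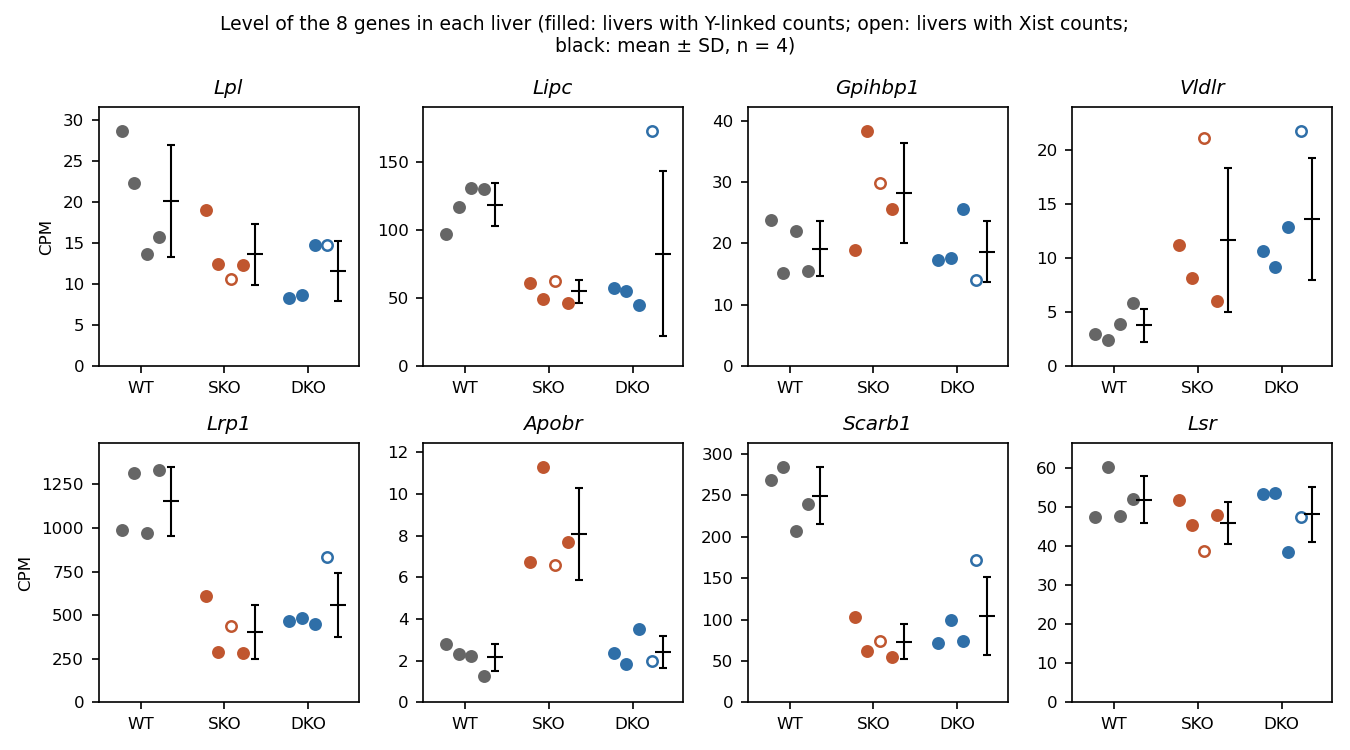
Level of each of the 8 genes in CPM (vertical axes, from 0) in the 4 WT, 4 SKO and 4 DKO livers, each point a liver in the order of its number, with open points for the livers with Xist counts and black bars for the mean ± SD of 4 livers. The 4 SKO livers sit at 6.60 CPM or more for Apobr, above all other livers, and DKO 4 lies at 173 CPM for Lipc, above every other liver.

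Lipc encodes hepatic lipase and lies on the minus strand at chr9:70798128-70952226 of GRCm38. Its level was 97.0, 117, 131 and 130 CPM in WT livers 1 to 4 and 61.5, 49.6, 62.8 and 46.4 CPM in SKO livers 1 to 4. In DKO livers 1 to 4 it was 57.4, 55.6, 44.9 and 173 CPM. All SKO livers lay below all WT livers, and 3 of the DKO livers lay in the SKO range or just under it, while DKO 4 lay above every WT liver. The mean level was 119 ± 15.9 CPM in WT livers, 55.0 ± 8.29 in SKO livers and 82.8 ± 60.6 in DKO livers (SD, n = 4 each). Lipc was 2.16-fold lower in SKO than in WT livers, with a log2 fold change of -1.11 ± 0.14 (SE) and an adjusted p of 0.000167 by edgeR. DKO livers had a log2 fold change of -0.50 ± 0.39 against WT and an adjusted p of 0.428, and without DKO 4 it was -1.17 ± 0.14 with an adjusted p of 7.36e-05, also by edgeR. The difference between DKO and SKO was 0.63 ± 0.40 on the log2 scale with all livers, with an interval of -0.26 to 1.52, and -0.059 ± 0.17 without DKO 4. The summed hepatocyte markers were lower in the SKO livers and in DKO 1 to 3, as was Lipc, and their part in the result was not tested. In a bulk sample, fewer hepatocytes and less RNA of a gene per hepatocyte cannot be told apart.

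Lpl, the gene of lipoprotein lipase (chr8:68880491-68907448, plus strand), is expressed mostly in adipose tissue, heart and muscle and is low in adult liver. Its level was 28.7, 22.4, 13.7 and 15.7 CPM in WT livers, 19.1, 12.4, 10.7 and 12.4 CPM in SKO livers and 8.34, 8.70, 14.8 and 14.8 CPM in DKO livers. WT 1 and WT 2 were the highest of the 12 livers, and the other pair of WT livers lay within the range of the KO livers. The log2 fold change was -0.57 ± 0.25 in SKO and -0.78 ± 0.29 in DKO against WT, and neither passed the test, with adjusted p-values of 0.108 and 0.108 by edgeR. In SKO against WT, Lpl passed when WT 3 or SKO 1 was left out, with adjusted p-values of 0.0454 and 0.0383 by edgeR. For DKO livers it passed without DKO 4, at a log2 fold change of -0.92 ± 0.28 and an adjusted p of 0.0264. Between DKO and SKO the difference was -0.20 ± 0.27, with an interval of -0.79 to 0.39, and without DKO 4 it was -0.35 ± 0.26. Of 7 adipocyte markers, Lipe had 222 to 422 reads per liver and made up most of their summed level of 13.8 to 24.2 CPM, and it is expressed beyond adipocytes. Of the others, Adipoq had at most 5 reads per liver and Lep 0. Plin1 had 0 reads in each WT liver and 3 to 10 in each SKO liver, and DESeq2 called Plin1 and Cidea higher in SKO than in WT livers, while both were too low to be tested by edgeR. Of 7 striated muscle markers, Ckm had at most 1 read and Acta1 at most 2, and Mylpf was the highest at 2 to 28 reads per liver. The part of these cells in the Lpl levels was not tested.

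Gpihbp1 encodes the protein that binds lipoprotein lipase on capillary endothelium (chr15:75596628-75599481, plus strand). It was at 23.8, 15.1, 22.1 and 15.4 CPM in WT livers, at 19.0, 38.4, 29.9 and 25.6 CPM in SKO livers and at 17.3, 17.6, 25.7 and 14.0 CPM in DKO livers. SKO 2, 3 and 4 were above every WT liver, whereas SKO 1 lay within the WT range, as did DKO 1 and 2. Gpihbp1 had a log2 fold change of 0.56 ± 0.22 in SKO against WT with an adjusted p of 0.0795 by edgeR, which became 0.71 ± 0.21 with an adjusted p of 0.0247 when SKO 1 was left out. Against WT, DKO livers had a log2 fold change of -0.025 ± 0.22, with an interval of -0.52 to 0.47, and its sign turned when DKO 4 was left out (0.083) or when libraries were scaled by their size alone (0.16). In DKO against SKO livers it was -0.58 ± 0.24 with an unadjusted p of 0.0373 and an adjusted p of 0.735 by edgeR, and -0.47 ± 0.24 without DKO 4. Of 13 endothelial markers tested, 0 passed in any of the 3 comparisons by edgeR or DESeq2 and 0 had an unadjusted p under 0.05 by edgeR, and their summed level was 342 to 779 CPM in WT livers, 453 to 576 in SKO livers and 392 to 577 in DKO livers.

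Vldlr, the receptor for very low density lipoprotein, is a relative of Lrp1 that is scarce in normal liver (chr19:27216484-27254231, plus strand). Its level was 2.96, 2.40, 3.90 and 5.88 CPM in WT livers, 11.2, 8.19, 21.1 and 6.06 CPM in SKO livers and 10.7, 9.19, 12.9 and 21.8 CPM in DKO livers. Every KO liver lay above every WT liver, SKO 4 by a narrow margin, and the highest liver of each KO group was the one with Xist counts. Behind these levels were 38 to 107 reads per WT liver, 108 to 406 per SKO liver and 150 to 409 per DKO liver. Vldlr was 3.06-fold higher in SKO livers against WT (log2 fold change 1.61 ± 0.39, adjusted p = 0.00791 by edgeR) and 3.63-fold higher in DKO than in WT livers (1.86 ± 0.35, adjusted p = 0.0174). Without SKO 3 the log2 fold change of SKO livers was 1.16 ± 0.32 with an adjusted p of 0.0155 by edgeR, and without DKO 4 that of DKO livers was 1.53 ± 0.28 with an adjusted p of 0.00149. For DKO livers the adjusted p was 0.0596, 0.0575 and 0.0529 by edgeR when WT 1, WT 2 or DKO 3 was left out. DKO and SKO livers differed by 0.25 ± 0.40, with an interval of -0.64 to 1.15, and by -0.092 without DKO 4.

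Lrp1 encodes a large endocytic receptor that takes up remnants rich in apolipoprotein E (chr10:127538161-127621148, minus strand). Its level was 991, 1318, 974 and 1333 CPM in WT livers, 608, 290, 439 and 282 CPM in SKO livers and 467, 485, 447 and 832 CPM in DKO livers. All KO livers lay below all WT livers, and DKO 4 was the KO liver closest to WT. Lrp1 was 2.86-fold lower in SKO than in WT livers, with a log2 fold change of -1.51 ± 0.25 and an adjusted p of 0.000702 by edgeR. In DKO livers it was 2.04-fold lower than in WT, with a log2 fold change of -1.03 ± 0.24 and an adjusted p of 0.0283, and without DKO 4 this became -1.30 ± 0.14 with an adjusted p of 5.20e-05. The call in DKO against WT held by edgeR when WT 3 or DKO 4 was left out and was lost when any of the other 6 livers was, with adjusted p-values of up to 0.0844. DKO livers were at 558 ± 184 CPM and SKO livers at 405 ± 153 CPM (SD, n = 4 each), a log2 difference of 0.49 ± 0.31 with an interval of -0.19 to 1.17 (adjusted p = 0.851 by edgeR), and without DKO 4 the difference was 0.21 ± 0.26. The summed hepatocyte markers were lower in every KO liver but DKO 4, where they lay within the WT range, and their part in the Lrp1 result was not tested.

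The promoters of Vldlr and Lrp1 are shown because these members of 1 receptor family moved in opposite directions in both KO groups. RefSeq promoters on GRCm38.p6 were at hand for 5 of the 8 genes (Lsr, Apobr, Lipc, Lrp1 and Vldlr), with 7 start sites. The 250 bases before each start were searched on both strands for the CRE (TGACGTCA), the AP-1 element (TGANTCA), the amino acid response element CARE (TGATGNAAT), a sterol response element (TCACNCCAC), the CLEAR core (TCACGTGA) and the direct repeat DR1. Of 32851 promoters of that length in the table, 1.55% held the CRE, 6.75% AP-1, 0.816% CARE, 1.05% the sterol element, 0.785% the CLEAR core and 0.338% DR1. Neither window below holds any of these letters, nor do the other start site of Vldlr and both of Lipc. The Vldlr window is chr19:27216234-27216483 on the plus strand and the Lrp1 window is chr10:127621149-127621398 on the minus strand, both written 5′ to 3′ along the gene.
Vldlr: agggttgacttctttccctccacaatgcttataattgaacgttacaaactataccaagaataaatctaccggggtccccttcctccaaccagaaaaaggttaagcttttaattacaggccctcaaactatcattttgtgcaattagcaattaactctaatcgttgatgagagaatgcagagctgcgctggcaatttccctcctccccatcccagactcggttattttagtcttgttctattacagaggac
Lrp1: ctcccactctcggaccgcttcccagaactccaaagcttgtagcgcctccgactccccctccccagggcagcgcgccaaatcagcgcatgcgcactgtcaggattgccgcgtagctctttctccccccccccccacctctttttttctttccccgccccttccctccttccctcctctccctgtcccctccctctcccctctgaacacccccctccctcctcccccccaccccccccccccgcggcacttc

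Scarb1 lies at chr5:125277087-125341094 on the minus strand. Its level was 268, 285, 207 and 240 CPM in WT livers, 103, 62.3, 73.6 and 54.3 CPM in SKO livers and 71.5, 99.6, 74.3 and 172 CPM in DKO livers. All KO livers lay below all WT livers, again with DKO 4 the closest to them. Scarb1 was 3.42-fold lower in SKO than in WT livers, with a log2 fold change of -1.77 ± 0.20 and an adjusted p of 5.66e-05 by edgeR. In DKO livers it was 2.37-fold lower than in WT (log2 fold change -1.24 ± 0.28, adjusted p = 0.0260 by edgeR), and without DKO 4 this became -1.61 ± 0.15 with an adjusted p of 2.10e-05. As with Lrp1, leaving out any liver other than WT 3 or DKO 4 ended the call in DKO against WT, with adjusted p-values of up to 0.0806 by edgeR. The difference between DKO and SKO was 0.54 ± 0.31 with all livers, with an interval of -0.15 to 1.24, and 0.16 ± 0.22 without DKO 4. The part of the hepatocyte markers, which moved as given for Lrp1, was not tested here either.

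Apobr encodes the apolipoprotein B receptor, a macrophage receptor that binds apolipoprotein B48 of triglyceride-rich particles (chr7:126584942-126589112, plus strand). Its level was 2.81, 2.34, 2.21 and 1.26 CPM in WT livers, 6.75, 11.3, 6.60 and 7.69 CPM in SKO livers and 2.36, 1.84, 3.51 and 1.97 CPM in DKO livers. All SKO livers lay above all WT and all DKO livers, while DKO livers overlapped WT livers. These levels rest on 23 to 54 reads per WT liver, 104 to 221 per SKO liver and 30 to 69 per DKO liver. Apobr was 3.74-fold higher in SKO livers against WT, with a log2 fold change of 1.90 ± 0.28 and an adjusted p of 0.000363 by edgeR. Against WT, DKO livers showed a log2 fold change of 0.18 ± 0.32, with an interval of -0.53 to 0.90 and an adjusted p of 0.747, or 0.26 ± 0.34 without DKO 4. DKO livers were 3.28-fold lower than SKO livers, at a log2 fold change of -1.71 ± 0.28, an interval of -2.34 to -1.09 and an unadjusted p of 0.000105, which did not pass after adjustment over all genes (adjusted p = 0.167 by edgeR). Over the 8 fits that leave out a liver, the adjusted p in this comparison was 0.0838 to 0.415 by edgeR. With DESeq2 it was 1.49e-05 and with edgeR and no filter on low counts 0.00891, and these 2 settings called Apobr lower in DKO than in SKO livers. The study names the ApoB receptor among lipid genes with a significant change in its RNA-seq. It followed such genes by RT-qPCR in both sexes, and those values are not used here.

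Of 13 macrophage markers tested, edgeR called 2 higher in SKO livers against WT and none lower, at a median log2 fold change of -0.00043, and 16.7% of all genes were higher. The 2 were Gpnmb and Cd68, both of lysosomes in lipid-laden macrophages, and Gpnmb went from 0 to 8 reads per WT liver to 492 to 845 per SKO liver. Without SKO 3, 2 of 14 markers were higher and 1 was lower, at a median of -0.31. Over all genes 17.3% were then higher and 15.2% lower. Cd68 was at 7.95 ± 2.53 CPM in WT livers, 38.9 ± 13.0 in SKO livers and 16.8 ± 7.45 in DKO livers (SD, n = 4 each). Adgre1, which marks mature macrophages, was at 11.1 ± 4.23, 12.0 ± 7.57 and 8.82 ± 5.99 CPM in the same order, and Clec4f, a Kupffer cell marker, at 89.8 ± 20.3, 81.9 ± 22.5 and 74.5 ± 43.8 CPM. The summed level of the 15 markers was 302 to 602 CPM in WT and 299 to 704 in SKO livers, of which SKO 3 was the highest. In DKO livers 1 to 3 it was 187, 281 and 279 CPM and in DKO 4 it was 628 CPM. Against WT, 1 of 14 markers in DKO livers was higher (Gpnmb) and 1 was lower (Marco), beside 6.06% and 4.39% of all genes. Without DKO 4, 10 of 14 were lower and 2 higher, beside 17.5% and 18.4% of all genes. Between DKO and SKO livers 0 of 15 markers passed by edgeR or DESeq2, at a median of -0.42, and 3 had an unadjusted p under 0.05, namely Cd68 (-1.18 ± 0.34), Marco (-2.31 ± 0.92) and Gpnmb (-1.65 ± 0.68). Without DKO 4, 0 passed by edgeR and 11 of 15 had an unadjusted p under 0.05, all with lower values in DKO livers, as Apobr had. Cd68 was then at -0.99, Marco at -2.88 and Gpnmb at -1.26. The share of all genes at that unadjusted threshold is not given here, so these counts have no background beside them. None of these markers is at 0 in SKO livers, and their part in the Apobr result was not tested.

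**Figure D2:**
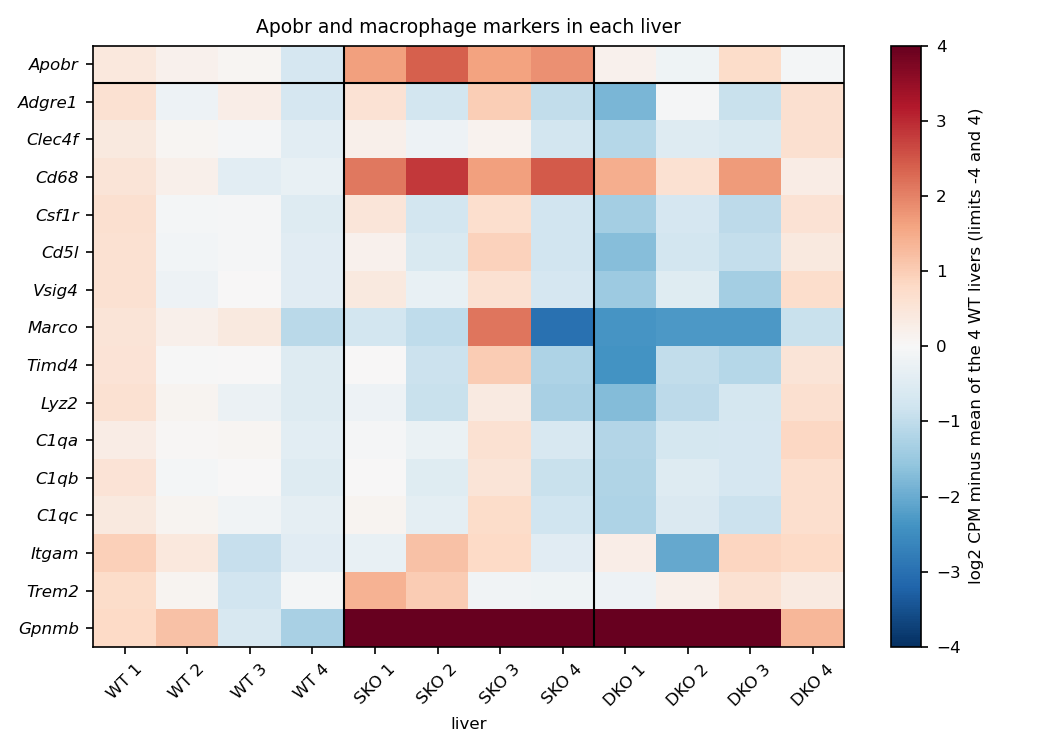
Apobr (top row) and the 15 macrophage markers (rows below) in each of the 12 livers (columns), colored by log2 CPM minus the mean of the 4 WT livers, with colors limited at a difference of 4 in either direction. Apobr, Cd68 and Gpnmb are red in the 4 SKO livers. Adgre1, Clec4f and the complement genes C1qa, C1qb and C1qc lie above the WT mean in some SKO livers and below it in others. DKO livers 1 to 3 are blue for most markers.

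The promoters of Apobr and Lsr are shown because both hold the same AP-1 letters, marked in capitals, although Apobr was called in SKO against WT livers and Lsr in no comparison. AP-1 elements are bound by dimers of the family to which Atf3 belongs, and 6.75% of all promoters hold the wider pattern TGANTCA, so the match is a description and no test of binding. The Apobr match spans bases 196 to 190 before the RefSeq start and the Lsr match bases 65 to 59. For Apobr the 184 bases before the first base of the gene in GENCODE are printed (chr7:126584758-126584941, plus strand), and for Lsr 250 bases (chr7:30973470-30973719, minus strand).
Apobr: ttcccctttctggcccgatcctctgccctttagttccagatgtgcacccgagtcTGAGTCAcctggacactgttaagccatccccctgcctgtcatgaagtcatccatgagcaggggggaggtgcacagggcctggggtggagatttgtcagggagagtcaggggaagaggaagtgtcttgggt
Lsr: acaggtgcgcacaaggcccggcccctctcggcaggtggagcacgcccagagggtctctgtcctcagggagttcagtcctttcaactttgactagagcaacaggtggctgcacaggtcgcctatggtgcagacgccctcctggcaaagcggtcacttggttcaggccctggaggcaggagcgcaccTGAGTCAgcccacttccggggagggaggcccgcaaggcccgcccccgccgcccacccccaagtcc

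Apobr overlaps 2 genes of the opposite strand in the coordinates deposited with the counts, Cln3 by 876 bases and Il27 by 103 bases. Whether the counting used strand is not given in the sources used here, so reads of the shared bases could not be assigned with certainty. Cln3, a gene of lysosomal membranes, had 210 to 544 reads per liver and was higher than in WT in SKO livers (log2 fold change 0.79 ± 0.15, adjusted p = 0.00230 by edgeR) and in DKO livers (0.66 ± 0.14, adjusted p = 0.0230). Between DKO and SKO livers Cln3 differed by -0.13 ± 0.18 on the log2 scale (-0.066 ± 0.18 without DKO 4), where Apobr differed by -1.71. Il27 had 0 to 7 reads per liver.

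Lsr encodes the lipolysis-stimulated lipoprotein receptor, which takes up remnants and also lies at tricellular junctions (chr7:30957770-30973464, minus strand). It was at 47.3, 60.2, 47.7 and 52.0 CPM in WT livers, at 51.6, 45.3, 38.7 and 47.9 CPM in SKO livers and at 53.1, 53.5, 38.4 and 47.3 CPM in DKO livers. The 3 groups overlapped throughout. The log2 fold change was -0.18 ± 0.13 in SKO against WT with an interval of -0.46 to 0.10, -0.095 ± 0.13 in DKO against WT with an interval of -0.39 to 0.21, which turned to 0.074 when libraries were scaled by their size alone, and 0.089 ± 0.15 in DKO against SKO with an interval of -0.25 to 0.43. The lowest of the adjusted p-values was 0.326 by edgeR, and none of the 15 alternative fits of a comparison called Lsr. In the coordinates deposited with the counts, the lncRNA Gm4673 overlaps Lsr by 3850 bases on the other strand. It had 188 to 396 reads per liver, with no call in any comparison.

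**Figure D3:**
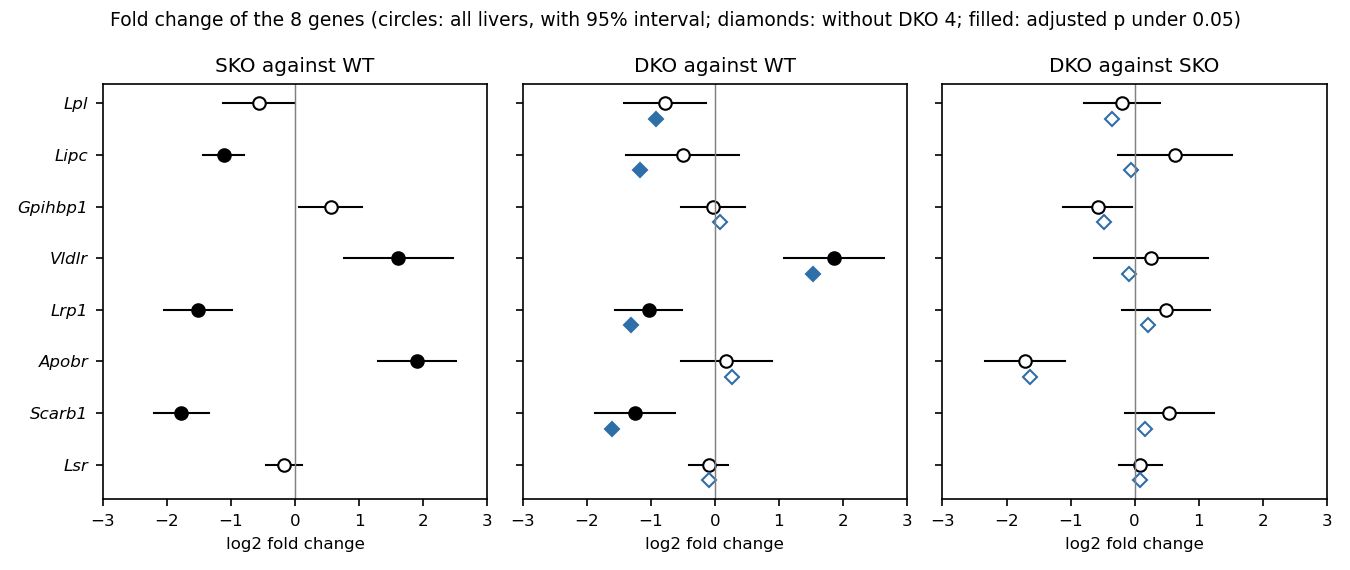
Log2 fold change (horizontal axes) of the 8 genes (rows) in the 3 comparisons, with circles for all livers and lines for 95% intervals of edgeR, diamonds for the fit without DKO 4, and filled symbols for an adjusted p under 0.05. Lipc and Lpl gain a filled symbol in DKO against WT without DKO 4, and no symbol is filled in DKO against SKO.

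Per length of transcript, in the deposited FPKM, Lrp1 and Lipc were the most abundant of the 8 in WT livers, at 68.1 ± 11.7 and 57.8 ± 7.89 FPKM, and their ranges over 4 livers overlapped. Scarb1 at 30.7 ± 4.13 and Lsr at 24.9 ± 2.87 FPKM followed, overlapping each other. Gpihbp1 at 7.83 ± 1.83 and Lpl at 2.01 ± 0.675 FPKM each stood apart from their neighbors, and Apobr at 0.596 ± 0.178 and Vldlr at 0.394 ± 0.16 FPKM overlapped at the bottom (SD, n = 4 throughout). In SKO livers Lipc, Lrp1 and Lsr formed the top, at 26.4 ± 4.00, 23.6 ± 8.90 and 21.8 ± 2.52 FPKM with overlapping ranges. Gpihbp1 at 11.4 ± 3.36 and Scarb1 at 8.89 ± 2.57 FPKM came next, and Apobr, Lpl and Vldlr overlapped at 2.21 ± 0.614, 1.34 ± 0.362 and 1.19 ± 0.684 FPKM. In DKO livers Lipc at 40.1 ± 30.0 and Lrp1 at 32.7 ± 11.3 FPKM led, but without DKO 4 they were at 25.2 ± 3.30 and 27.0 ± 0.998 FPKM (n = 3). Lrp1 was then first by its mean, and Lipc overlapped both Lrp1 and Lsr. In all 4 DKO livers, Lsr, Scarb1 and Gpihbp1 overlapped in turn at 22.9 ± 3.34, 12.7 ± 5.92 and 7.54 ± 1.95 FPKM, and Vldlr, Lpl and Apobr closed the order at 1.40 ± 0.604, 1.15 ± 0.366 and 0.662 ± 0.205 FPKM. Apobr thus held place 7 of 8 in WT livers, 6 in SKO livers and 8 in DKO livers, with and without DKO 4.

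**Figure D4:**
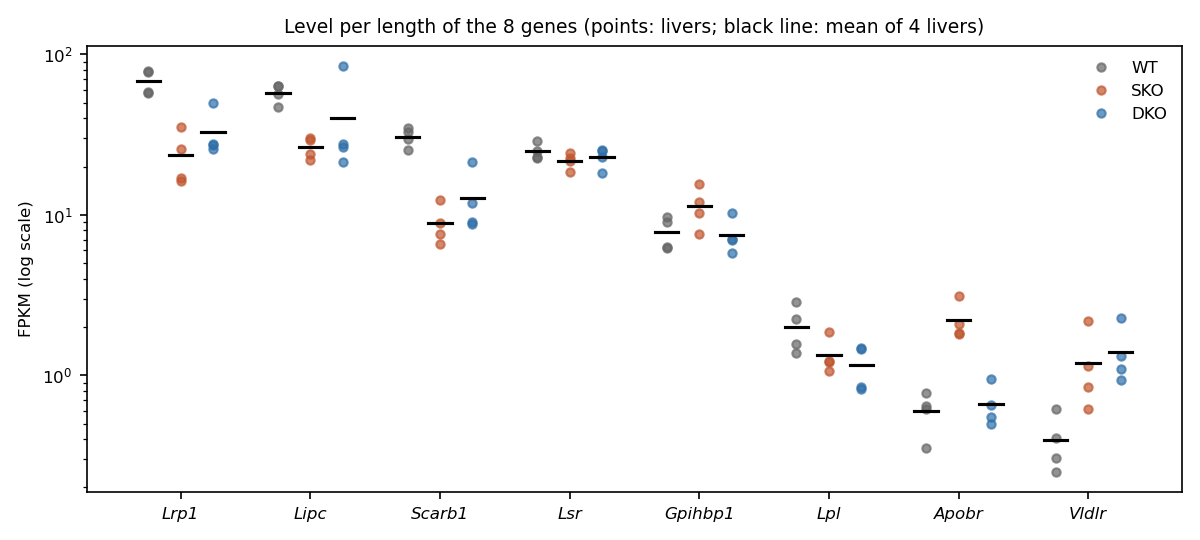
Level per length of the 8 genes in FPKM on a log axis, each point a liver and each black line the mean of 4 livers, in the order of the WT means. Lrp1, Lipc and Scarb1 are lower in SKO livers than in WT livers, Lsr stays near 22 to 25 FPKM in all groups by its means, and Apobr and Vldlr lie near or under 3 FPKM.

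Across the 12 livers the genes most like each of the 8 were sought among 13072 genes of at least 1 CPM on average, by the root mean square difference of mean-centered log2 CPM. Apobr was closest to Lgals3 (0.33), Cd14 (0.45) and Cd68 (0.45), which are all genes of macrophages, beside a spread of its own of 0.92 on that scale. Lrp1 was closest to Sema4g (0.20), Suox (0.20) and Fn1 (0.20), with a spread of 0.75, and Scarb1 to Fbp1 (0.19), Gsap (0.20) and Slc25a48 (0.20), with a spread of 0.85. For Lipc the nearest were Selenbp1 (0.11), Fras1 (0.12) and Abhd14b (0.17), with a spread of 0.65. For Vldlr, St3gal6 (0.40), Gm16754 (0.42) and Cables1 (0.43) came nearest, with a spread of 0.96. Lpl was nearest to Ckap4 (0.23), Bcar1 (0.25) and Nr2f2 (0.25), Gpihbp1 to Rerg (0.17), Sema3f (0.20) and Rpl9 (0.21), and Lsr, which hardly varied (0.18), to Pik3c3 (0.081), Ppp6r1 (0.098) and Spast (0.11). The livers share genotypes, so these likenesses include what each genotype shifts in many genes.

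The relatives of Vldlr and Lrp1 were mixed. Of 10 members of this receptor family tested, Vldlr and Lrp1 included, 3 were higher and 1 lower in SKO livers against WT, at a median log2 fold change of 0.18 beside 0.03 over all genes tested, of which 16.7% were higher and 15.4% lower. Lrp10 (0.68 ± 0.14, adjusted p = 0.00363 by edgeR) and Lrp3 (0.53 ± 0.16, adjusted p = 0.0248) were higher, next to Vldlr, and Lrp1 was the lower one. In DKO livers Vldlr and Lrp1 were the members called against WT. Without DKO 4, 5 members were higher and 2 lower, beside 18.4% higher and 17.5% lower over all genes. Among 10 genes of receptor trafficking and turnover, 1 was lower and none higher in SKO livers, beside the same shares over all genes. It was Lrpap1 (-0.52 ± 0.12), the chaperone of Lrp1 and its relatives. Mylip, whose product marks Vldlr and its relatives for lysosomes, was at 0.26 ± 0.21 and did not pass. In DKO livers 0 of these 10 passed by edgeR or DESeq2 and 0 had an unadjusted p under 0.05 by edgeR, but without DKO 4 edgeR called 2 lower, Lrpap1 (-0.52 ± 0.10) and Mesd (-0.37 ± 0.12), which encodes another chaperone of this family.

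Among 9 scavenger receptor genes, Cd36, a fatty acid and lipoprotein receptor, was higher in SKO (2.89 ± 0.40) and in DKO livers (1.94 ± 0.22) than in WT livers, next to the lower Scarb1. Cd68 was also higher in SKO livers, and against WT it was at 1.09 in DKO livers with an adjusted p of 0.0690 by edgeR, where DESeq2 called it, and at 1.28 ± 0.29 with an adjusted p of 0.00527 by edgeR without DKO 4. Marco was lower in DKO than in WT livers (-1.95 ± 0.45, or -2.49 ± 0.36 without DKO 4). Of 10 genes for the heparan sulfate route of remnant uptake, 4 were lower and none higher in SKO livers, at a median of -0.20, beside 15.4% lower and 16.7% higher over all genes. These were Sdc4 (-1.86 ± 0.25), Gpc4 (-0.79 ± 0.17), the sulfotransferase gene Ndst1 (-0.73 ± 0.16) and Sdc1 (-0.53 ± 0.16), the main proteoglycan receptor of hepatocytes. For DKO livers 0 of the 10 passed against WT by edgeR with all livers, 3 had an unadjusted p under 0.05 and DESeq2 called 2 (Sdc4 and Ndst1), and 4 were lower by edgeR without DKO 4, where 17.5% of all genes were. In the Lsr family, Ildr2 was lower in SKO livers (-2.48 ± 0.30, adjusted p = 0.000102 by edgeR), and in DKO livers it was at -1.39 ± 0.62 and did not pass. Ildr2 was at 48.5 CPM in DKO 4, within the WT range of 35.4 to 64.8 CPM, and at 5.88 to 9.62 CPM in DKO 1 to 3, and without DKO 4 it was lower than in WT at -2.60 ± 0.25 (adjusted p = 2.29e-05 by edgeR).

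Of 14 genes for maturation and control of lipoprotein lipase, Gpihbp1 included, 1 was higher and 4 were lower in SKO than in WT livers, at a median of -0.05, which is near the 32.1% of all genes called. The lower ones included Angptl8, the gene of a secreted inhibitor of the lipase (-1.48 ± 0.36), and Apoc1 (-1.0 ± 0.16). Sel1l, which helps the lipase leave the endoplasmic reticulum, was lower in SKO (-1.0 ± 0.20) and in DKO livers (-0.97 ± 0.16), while Lmf2, a relative of the lipase maturation factor Lmf1, was higher in both (0.67 ± 0.12 and 0.50 ± 0.13). Angptl4, a fasting-induced inhibitor, was at 0.44 ± 0.28 in SKO and 0.48 ± 0.23 in DKO livers and did not pass in either, and Apoc2, Apoc3 and Apoa5 lay between -0.08 and 0.17 in both. In DKO livers 1 of the 14 was higher and 3 were lower than in WT livers, Angptl8 among them (-1.42 ± 0.37), beside 10.5% of all genes called. Without DKO 4, 1 was higher and 4 were lower, near the 35.9% of all genes called in that fit.

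Of 7 secreted lipases and lipid transfer genes tested, 1 was higher and 4 were lower in SKO livers, at a median of -0.57, with Pla1a (-1.09 ± 0.15), Lcat (-0.53 ± 0.15) and Pla2g12b (-0.36 ± 0.11) lower beside Lipc and Pltp (0.69 ± 0.18) higher. Lipg, the endothelial lipase gene, was at -0.64 ± 0.39 and did not pass. Of 14 genes of intracellular lipases and their regulators, 7 were higher and 3 lower in SKO livers, at a median of 0.47, and both lists stand beside 16.7% higher and 15.4% lower over all genes. The higher ones included Hilpda, the gene of an inhibitor of adipose triglyceride lipase (3.27 ± 0.31), Pnpla2, which encodes that lipase (1.69 ± 0.16), Ddhd2 (1.24 ± 0.18), the lysosomal acid lipase gene Lipa (1.12 ± 0.12) and Mgll (0.68 ± 0.15), and Ces2a was among the lower (-1.03 ± 0.12). DKO livers also had more Hilpda (3.67 ± 0.53) and Pnpla2 (0.89 ± 0.24) and less Ces2a (-0.66 ± 0.18) than WT livers, and 0 of the secreted group passed by edgeR or DESeq2 with all livers, where 2 had an unadjusted p under 0.05 by edgeR. Without DKO 4, 0 of the 7 secreted genes were higher and 5 were lower, and 5 of the 14 intracellular ones were higher and 4 lower, beside 18.4% higher and 17.5% lower over all genes. The difference between these lists was not tested. Of the 76 genes of these lists tested between DKO and SKO livers, 0 passed by edgeR, 11 had an unadjusted p under 0.05 and DESeq2 called 1 (Ddhd2), and without DKO 4 edgeR called 0 and 10 had an unadjusted p under 0.05.

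**Figure D5:**
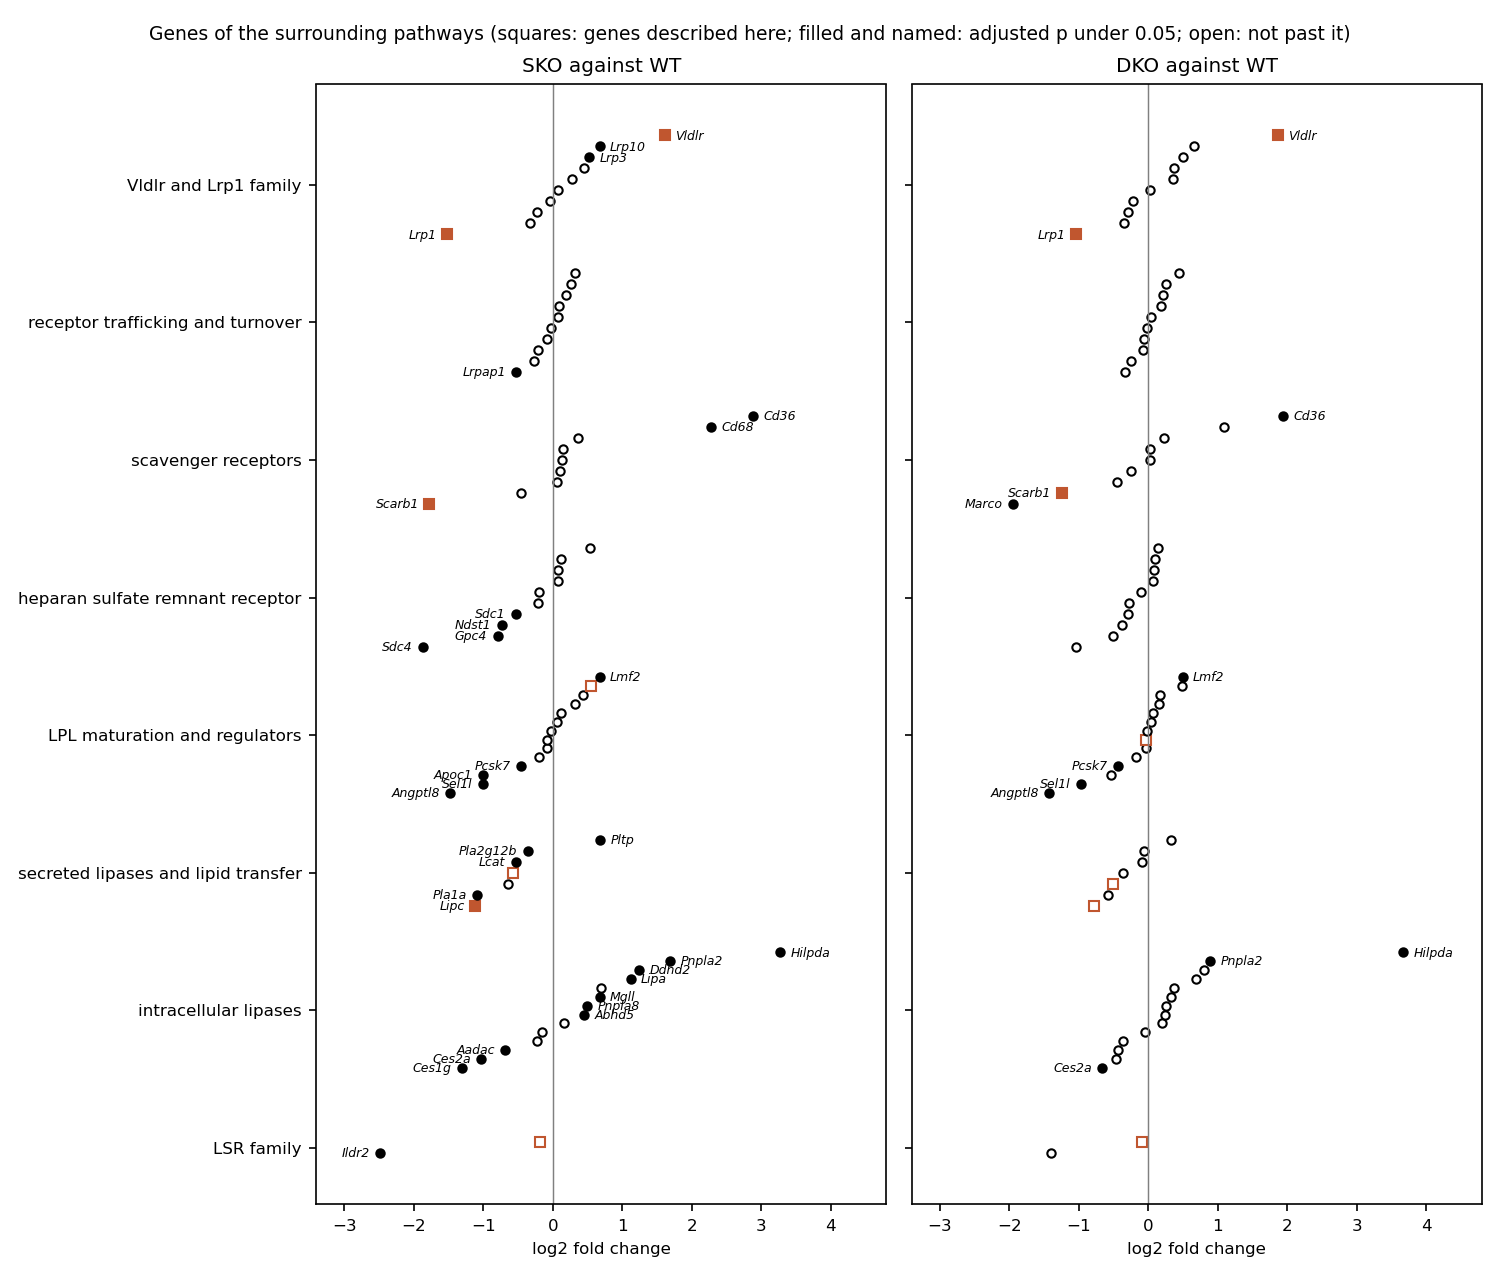
Log2 fold change (horizontal axes) of the genes of 8 pathway lists (rows) in SKO against WT and DKO against WT livers, each point a gene, with squares for 7 of the 8 genes described (Apobr is in none of these lists) and filled, named symbols for an adjusted p under 0.05. Hilpda lies farthest to the right in both panels, at 3.27 and 3.67, and Ildr2 farthest to the left in SKO livers, at -2.48.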

How the data were processed

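RNA-seq of 12 fasted mouse livers, 4 per genotype, was used as deposited. The authors deposited unnormalized counts for Ensembl genes and a table of FPKM, which equals the counts over gene length and library total times 1 factor per liver (0.886 to 1.17). The submitters' processing notes name HISAT2 and GRCm38/mm10. The counting program and annotation release are not given in the sources used here. Start and end of 1472 of 52073 genes were the same in the count table and in GENCODE M21 on GRCm38, so positions printed here are those of GENCODE, matched by Ensembl ID, and the table's own are not used. Promoters are those of RefSeq on GRCm38.p6, and bases inside the GENCODE gene are not printed. The authors also deposited tables of their own comparisons, with log2 fold changes, p-values and scaled counts, which were not used.

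Each pair of genotypes was compared in its 8 livers with edgeR 4.0.16 in R 4.3.3, with filterByExpr, TMM normalization and the two-sided quasi-likelihood test. P-values were adjusted across every gene in the fit (Benjamini-Hochberg), with a threshold of 0.05. Standard errors are the size of the log2 fold change divided by the square root of F. The 95% intervals use the total degrees of freedom of edgeR, which add prior to residual degrees of freedom. Fits were tested on simulated data. The alternatives were DESeq2 1.42.0, RLE normalization, library size alone, no filter on low counts, all 12 livers in 1 fit, a replicate block, no livers with Xist counts, and each liver left out in turn. A count of 0 allows up to 3 counts, which is 0.150 to 0.204 CPM and covers counting error only. No pair of livers of a genotype was a copy, with a chi-square per degree of freedom of at least 20.6.

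The 8 genes, the 8 pathway lists and the 9 marker lists were chosen with earlier results of these data known, so no p-value was adjusted over a list alone. Counts at an unadjusted p under 0.05 are given without the share of all genes at that threshold. A few genes of the pathway lists are not reported here and are left out of the lists' counts and medians. Named besides the 8 were checks of labels, fixed genes of the pathways and up to 4 genes per list by p-value, markers at 0 or with the highest levels, overlapping genes, and the 3 genes most alike. Adgre1, Clec4f, Mesd, Cidea, Lipe, Mylpf and the hepatocyte markers not called were chosen after their values were seen. Positions are 1-based.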

Additional observations from a re-analysis of the deposited data

Results flagged for a closer look

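In 24 groups of 4 livers, 8 genes in 3 genotypes, a liver far from the other 3 was sought with Dixon's criterion at 95%, which chance meets in about 1 of 20 groups, or 1.2 of 24. It was met in 2 groups, both by DKO 4. Lipc was at 173 CPM in DKO 4 and at 44.9 to 57.4 CPM in the other 3 DKO livers. Lrp1 was at 832 CPM in DKO 4 and at 447 to 485 CPM in the others. Scarb1 was also highest in DKO 4 among DKO livers, at 172 CPM beside 71.5 to 99.6 CPM, and did not meet the criterion. Each of these genes was lower in the other DKO livers than in every WT liver. DKO 4 had 5 reads of Atf3, the fewest of the 12 livers, 20855 reads of Xist, 109304 CPM of hepatocyte markers and 99.9 CPM of Cpt2. The part of sex, genotype and cell makeup in its values was not tested.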

How the results depend on the processing

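The 5 calls in SKO against WT held in all 15 alternative fits. In this comparison the fit without the livers with Xist counts is the same as the fit without SKO 3. The number of the 8 genes called in DKO against WT was 5 without the livers with Xist counts and 0 to 5 over the fits that leave out a liver, being 0 without WT 1, WT 2 or DKO 3 and 1 (Vldlr) without WT 4, DKO 1 or DKO 2. In DKO against SKO it was 1 with DESeq2 and 1 with no filter on low counts, where Apobr was called. The cause was not tested. Leaving out a liver turned the sign of some log2 fold changes, which for Lipc in DKO against SKO went from 0.63 to -0.059 without DKO 4. Over these fits DKO against WT ranged from -0.22 to 0.083 for Gpihbp1 and from -0.053 to 0.32 for Apobr. DKO against SKO ranged from -0.35 to 0.0037 for Lpl, from -0.059 to 0.83 for Lipc and from -0.092 to 0.71 for Vldlr. For DKO livers against WT, Gpihbp1 was at 0.083 without the livers with Xist counts and at 0.16 with library size alone, which also put Lsr at 0.074. In SKO against WT, Gpihbp1 passed with library size alone and with no filter (0.72 and 0.58), and Lpl passed with the replicate block at -0.54 (adjusted p = 0.0287 by edgeR), which changed no other call of the 8 genes. Same-numbered livers did not deviate together, with correlations of -0.077 to 0.079 in SKO against WT, -0.16 to 0.11 in DKO against WT and -0.39 to 0.10 in DKO against SKO, and 1, 1 and 0 of 4 numbers had their best match in their own number. These values show no pairing by number, but 4 numbers cannot exclude a shared litter or batch. Over all genes, DKO against WT had 1510 calls, 2508 with DESeq2, 691 with the replicate block, 5253 without DKO 4 and 244 to 719 without any 1 of the other 7 livers, and DKO against SKO had 3, 91 with DESeq2, 35 with no filter, 0 with the replicate block and 21 without the livers with Xist counts. Apobr with 23 to 221 reads per liver and Vldlr with 38 to 409 had the lowest minimum counts of the 8 genes, and standard errors also hold the spread between livers.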

Other observations

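Other cells of the liver were followed by marker lists as well. Of 12 markers of stellate cells, the vitamin A storing cells of the sinusoid, 2 were higher and none lower in SKO than in WT livers by edgeR, namely Dcn (0.61 ± 0.14) and Pdgfra (0.65 ± 0.20), beside 16.7% of all genes higher, and 1 was without SKO 3. Their summed level was 214 to 239 CPM in WT livers, 287 to 390 in SKO livers and 261 to 339 in DKO livers. For DKO livers 0 passed against WT by edgeR, 4 had an unadjusted p under 0.05 and DESeq2 called 1, and without DKO 4 edgeR called 2 higher, beside 18.4% of all genes. Of 5 cholangiocyte markers tested, 2 were lower in SKO livers and 1, Sox9, in DKO livers, and without DKO 4 2 of 6 were lower in DKO livers, beside 15.4%, 4.39% and 17.5% of all genes. Lymphocyte and neutrophil markers were nearly all too low to test, with 2 and 1 tested in SKO against WT livers and 0 of them called by edgeR or DESeq2 and 0 at an unadjusted p under 0.05.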
